A study of Rattus norvegicus with 8 samples.

Results

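The enzymes described here are 37 genes of amino acid breakdown and of linked steps of amino acid synthesis, taken by gene symbol from a named list and grouped by the amino acid they handle. Of these, 35 had a probe among the 21209 features of the array table (a feature is a gene symbol or, for want of one, a probe). They were read through 40 probes, and 32 had enough values to be tested. Hgd and Cdo1 had no matched probe and were not analysed here. Livers of 8 Sprague Dawley rats, of unknown age, were profiled with 2 colours, each liver RNA in Cy5 against a pool of control liver RNA in Cy3. The labels state that 4 rats were given LPS (lipopolysaccharide, an endotoxin of Gram-negative bacteria) at 3 mg/kg by intraperitoneal injection. The other 4 rats are called non-treated in one label and vehicle-injected, with 0.9% sodium chloride, in another, and all livers were taken after 24 h. The headers of the table state a different scale, 0 mkd for the controls, 100 mkd for LPS array 1, 1000 mkd for LPS arrays 2 to 4, and day 2. The files do not settle which holds, and the groups are called LPS and control with no dose. The labels call the 4 replicates of each group biological. How many livers made the pool is not given in the sources used here.

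Amino acid breakdown is concentrated in hepatocytes, the parenchymal cells of the liver. Transaminases and dehydratases remove nitrogen, which is passed on to the urea cycle or held in glutamine, and the remaining carbon feeds glucose synthesis, ketone bodies or the citric acid cycle. Branched-chain amino acids are an exception in that their first transamination takes place mostly in other tissues, and the tryptophan route through kynurenine also supplies the precursor of NAD.

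Of 23615 probes, 23408 to 23529 had a value on an array, with a median liver intensity of 0.12 to 0.17 units and a highest value of 46.8 to 58.5 units. Arrays are numbered in table order within a group. Across 11720 probes of the pool channel, which held the same kind of RNA on every array, the first principal component took 59.6% of the variance. The component was low on control arrays 2 to 4 and high on LPS arrays 2 to 4, with array 1 of each group between them. Its scores were 0.07, -0.48, -0.39 and -0.37 on control arrays 1 to 4 and -0.03, 0.43, 0.44 and 0.33 on LPS arrays 1 to 4. Of 8 hepatocyte markers, 7 were measured and none was at 0. The liver intensity summed over the 4 of them with a value on every array was 25.4 to 37.7 units in the control livers and 18.2 to 25.7 in the LPS livers, and 2 of 4 tested fell. The 7 neutrophil markers summed to 0.409 to 0.52 units in the control livers and 7.7 to 13.3 in the LPS livers, with 3 of 7 higher. The 6 T and NK cell markers summed to 1.08 to 1.2 and 1.67 to 2.56 units, with 3 of 6 higher. Kupffer cell and macrophage markers summed to 18 to 24.6 and 13.9 to 17.3 units (1 of 7 higher, 2 lower), and endothelial markers to 38.7 to 45.2 and 25.6 to 34.3 (1 of 4 higher, 2 lower). Stellate cell markers summed to 3.66 to 4.94 and 3.71 to 4.79 units (2 of 4 higher). B cell markers summed to 0.14 to 0.35 and 0.23 to 0.35 units and cholangiocyte markers to 0.55 to 0.835 and 0.645 to 0.815, with 0 of 3 called in each. None of these markers was at 0. Of all 21052 features tested, 12.4% were called lower and 12.2% higher by the test used below. The part of the array sets and of the cell makeup in the results below was not tested, and in whole liver fewer cells of a type and less RNA per cell cannot be told apart.

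Enzymes of the list were lower in the LPS livers wherever a difference passed the test. Of the 32 tested, 13 fell, 0 rose and 19 were not called by limma at an adjusted p under 0.05, where 12.4% of all 21052 features tested were called lower and 12.2% higher (24.7% in either direction). The 13 are Sds, Phgdh, Kmo, Gcdh, Gpt, Gls2, Ftcd, Hpd, Prodh, Glud1, Bckdha, Glul and Dbt. Their falls ran from 9.78-fold for Sds to 1.29-fold for Dbt, and 5 of them were at least 2-fold. At an unadjusted p under 0.05, 14 enzymes were lower and 3 higher. The 4 LPS values lay below the 4 control values in the same 13 enzymes and above them in 1, Sardh, against 14.7% and 13.1% of all features. Over the 32 enzymes the median log2 difference, LPS minus control, was -0.38, and over all features it was -0.04.

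By amino acid group the falls are counts in small sets of enzymes, where 12.4% of all features were called lower. Sets this small cannot show that a group without a fall differs from the others. In the glutamate group 5 of 9 tested enzymes fell, in the serine and glycine group 2 of 8, in the branched-chain group 2 of 5, in the tryptophan group 1 of 3, in the histidine and lysine groups 1 of 2 each, and in the sulfur group 0 of 2. The tyrosine group had 1 tested enzyme, which fell. Among the 22 enzymes with a mean liver intensity of at least 1 unit, 9 fell and 0 rose, and of the 3391 features of that brightness 20.3% were called lower and 23.9% higher. Of the 10 dimmer enzymes 4 fell and 0 rose, where 10.9% of the 17661 dimmer features were called lower and 9.97% higher. With the first pool component as a term in the fit, 3 of the 13 falls were called (Kmo, Glul and Dbt), where 2.25% of all features were called lower. The median difference in that fit was -0.40, with -2.87 for Sds, -0.98 for Gls2 and -1.04 for Gcdh. With the ratios quantile normalized 2 were called (Kmo and Gcdh), against 3.29% of all features, and the median difference was -0.27.

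**Figure D1:**
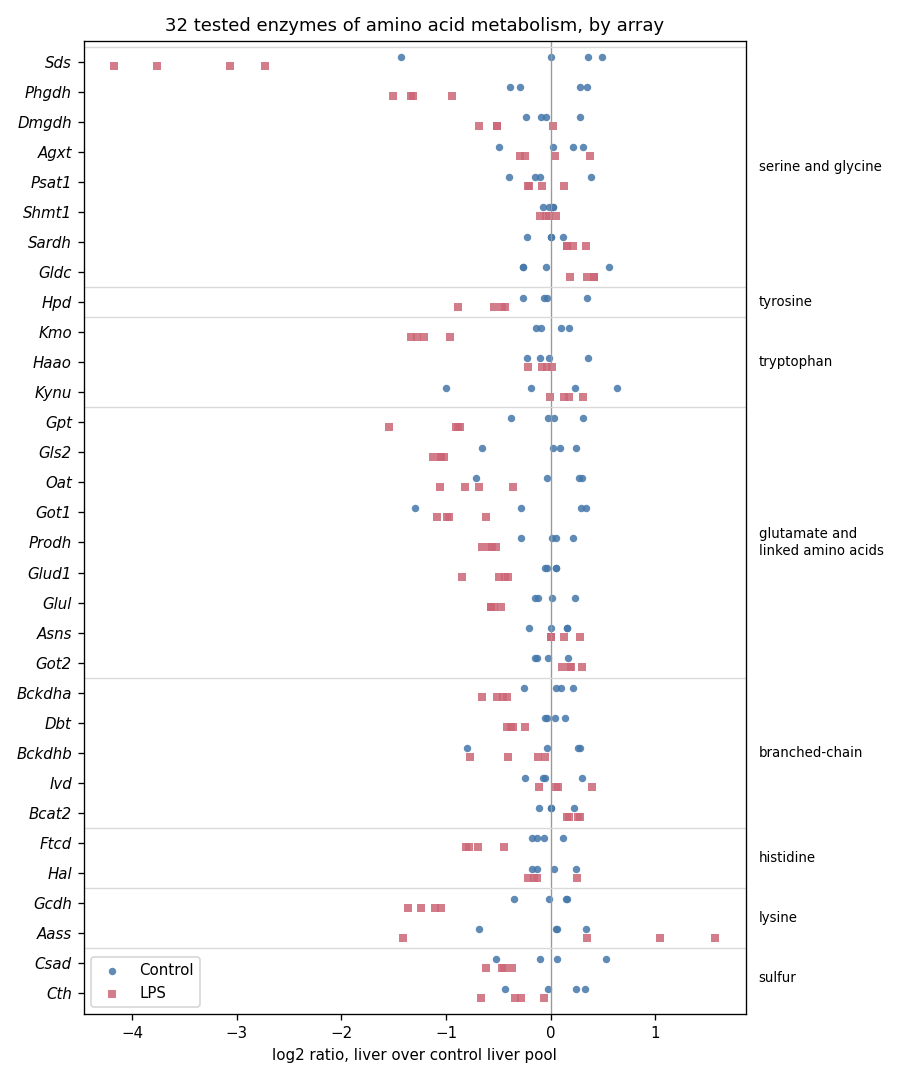
Log2 ratio of liver over control liver pool (x axis) for each of the 32 tested enzymes (y axis), grouped by amino acid, with a circle for each of the 4 control arrays and a square for each of the 4 LPS arrays. Sds reaches -4.18 on an LPS array, and the lysine enzyme Aass is the most scattered within the LPS group, from -1.41 to 1.57.

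**Figure D2:**
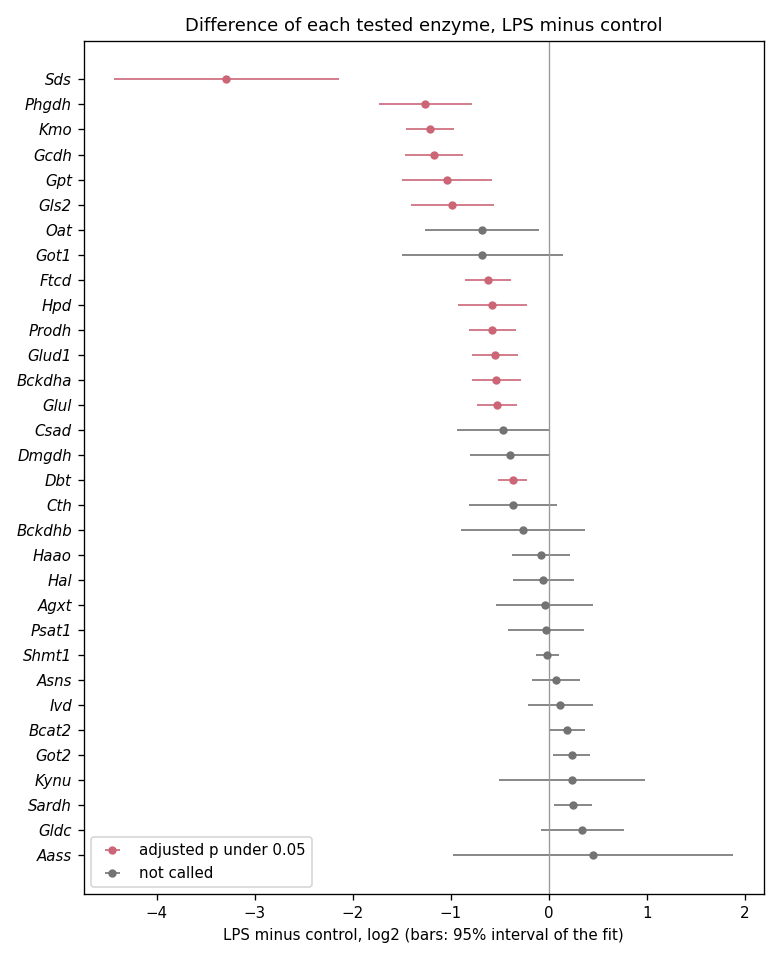
Difference in log2 ratio between the LPS and control arrays (x axis, 4 arrays per group) for the 32 tested enzymes, ordered by size, with the 95% interval of the fit as a bar. The 13 enzymes called at an adjusted p under 0.05 are all on the left of 0, and 24 of the 32 differences are negative.

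Promoter sequence is shown for the fallen enzymes whose 250 bases before a transcription start hold one of the motifs searched, to set the genes beside letters known from liver gene control. The sequences are from RefSeq on the GRCr8 assembly, which held 34 promoters of 30 of the 37 genes and 11 promoters of 9 of the 13 fallen ones. On both strands of the window from 250 bases before to 50 after the start, the motifs searched were TGACG (a short form of the cAMP response element), GTTAAT (part of the HNF1 site), AAAGTCC (a core of HNF4 sites) and TGATGCA (the core of the amino acid response element). HNF1 and HNF4 are transcription factors of hepatocytes, the cAMP response element takes part in the fasting response, and the amino acid response element in the response to amino acid shortage. The capitals mark the matches, printed in the direction of transcription, so a match on the other strand appears as its reverse complement, and no 2 matches overlap. The stretches are chr13:90089271-90089520 on the plus strand for Kmo, chr7:1201629-1201878 on the plus strand for Gls2, chr20:12068220-12068469 on the minus strand for Ftcd and chr12:39041996-39042245 on the plus strand for Hpd. The Kmo and Gls2 stretches reach past the first annotated base of the gene (90089340 and 1201757), and the Kmo match lies past it. Another Gls2 promoter, chr7:1206874-1207123, held 0 matches and is not shown.
Kmo: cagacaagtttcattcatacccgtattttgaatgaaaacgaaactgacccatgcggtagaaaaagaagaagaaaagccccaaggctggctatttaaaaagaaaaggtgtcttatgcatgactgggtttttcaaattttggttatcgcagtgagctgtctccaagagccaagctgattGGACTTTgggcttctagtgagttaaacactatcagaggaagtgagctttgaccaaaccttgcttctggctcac
Gls2: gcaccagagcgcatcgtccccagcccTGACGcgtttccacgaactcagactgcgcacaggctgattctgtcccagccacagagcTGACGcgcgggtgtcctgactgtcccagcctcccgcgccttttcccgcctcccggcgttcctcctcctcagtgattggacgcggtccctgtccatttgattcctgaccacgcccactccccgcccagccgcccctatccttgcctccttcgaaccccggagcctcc
Ftcd: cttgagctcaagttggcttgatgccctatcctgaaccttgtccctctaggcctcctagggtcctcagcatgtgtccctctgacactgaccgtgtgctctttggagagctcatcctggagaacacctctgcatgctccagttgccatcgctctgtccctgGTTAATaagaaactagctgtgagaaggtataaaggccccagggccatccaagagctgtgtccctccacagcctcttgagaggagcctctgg
Hpd: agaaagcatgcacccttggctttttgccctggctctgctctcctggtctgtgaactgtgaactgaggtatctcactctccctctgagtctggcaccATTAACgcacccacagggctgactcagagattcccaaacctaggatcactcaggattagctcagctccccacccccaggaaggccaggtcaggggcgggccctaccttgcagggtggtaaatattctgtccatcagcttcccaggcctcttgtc
Over the whole window the HNF1 motif was in 3 of the 34 promoters (Ftcd, Hpd and Sardh) and in 7.45% of all 33469 promoters of the table. The HNF4 core was in 2 (Hgd and Kmo) and in 4.63% of all. The cAMP response element motif was in 4 (Aass, Gls2, Glul and Oat) and in 21.2% of all, and the amino acid response element core in 2 (Agxt and Got1) and in 2.96% of all. These are matches of letters and describe the sequence only.

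In the serine and glycine group, Sds and Phgdh fell and 6 enzymes were not called. Sds, serine dehydratase, which turns serine into pyruvate and ammonia for glucose synthesis, had a liver intensity of 39.4, 51.6, 15.9 and 44.8 units on control arrays 1 to 4 and 6.54, 2.93, 4.84 and 2.32 units on LPS arrays 1 to 4. Every LPS liver was below every control liver, and control array 3 was the lowest control by far. The pool read 35.0 to 43.3 units for the same probe over the 8 arrays. On the log2 ratio scale Sds fell by 3.29 (SE 0.49, adjusted p = 0.00292), or 9.78-fold, and the difference was between -3.72 and -3.04 when any 1 array was left out. On 2 control arrays the liver spot reached at least 90% of the brightest spot, so the size of this fall is not exact.

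Phgdh, phosphoglycerate dehydrogenase, starts serine synthesis from a glycolytic intermediate and so runs opposite to Sds. Its log2 ratio was -0.39, 0.35, 0.28 and -0.29 on the control arrays and -1.31, -1.51, -1.33 and -0.94 on the LPS arrays. The groups did not overlap, although control arrays 1 and 4 were lower than 2 and 3. Phgdh fell by 1.26 (SE 0.20, adjusted p = 0.00412), or 2.40-fold. The next enzyme of the same route, Psat1 (phosphoserine aminotransferase), had a difference of -0.03 (95% interval -0.42 to 0.36). Psph, the phosphatase that completes the route and not one of the 37, rose by 0.92 (SE 0.16, adjusted p = 0.00585), or 1.89-fold, with 0.77 to 1.22 on the LPS arrays and -0.17 to 0.44 on the control arrays. Both calls were lost with quantile-normalized ratios (adjusted p = 0.146 for Phgdh and 0.108 for Psph) and with the pool component as a term (0.204 and 0.129).

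Agxt, the peroxisomal enzyme that moves an amino group from alanine to glyoxylate to make glycine, had a difference of -0.04 (95% interval -0.54 to 0.46). Shmt1, which exchanges serine and glycine in the cytosol with a folate cofactor, had -0.02 (-0.13 to 0.10), its probes differing in sign (-0.18 and 0.14). The glycine cleavage enzyme Gldc had 0.34 (-0.08 to 0.77, adjusted p = 0.216). Dmgdh, which demethylates dimethylglycine in the breakdown of choline, had -0.40 (-0.80 to 0.00, adjusted p = 0.134), and without LPS array 4 it had -0.55 (adjusted p = 0.0297). Sardh, the next enzyme of that route, which makes glycine from sarcosine, was read at 0.10 to 0.13 units in the control livers and 0.19 to 0.22 in the LPS livers, near the dim end of the scale. Its ratios did not overlap between the groups, and its difference of 0.24 was not called (SE 0.08, adjusted p = 0.0697). Without control array 2 its adjusted p was 0.0437 and that of Gldc was 0.00808.

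Of the tyrosine enzymes only Hpd, 4-hydroxyphenylpyruvate dioxygenase, which opens the way to homogentisate, could be tested. Its liver intensity was 7.78, 10.1, 6.99 and 8.63 units on the control arrays and 6.07, 5.49, 5.51 and 4.30 on the LPS arrays. All LPS livers were lower than all control livers, by less than 1 unit between the nearest of them. Hpd fell by 0.58 (SE 0.15, adjusted p = 0.0278), or 1.49-fold. This call was lost when control array 1 or 4 or LPS array 2, 3 or 4 was left out (adjusted p = 0.053 to 0.061), with a difference of -0.48 to -0.62 in those fits.

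Tat, tyrosine aminotransferase and the first enzyme of the route, had values on control array 1 and LPS arrays 2 to 4 only and was not tested. Its liver intensity was 47.9 units on the control array and 35.0, 22.1 and 27.8 on the LPS arrays, with log2 ratios of 0.19 and -0.88, -1.55 and -1.31. The single control value was above the 3 LPS values, but the control liver spot and the pool spots of those 3 LPS arrays lay near the ceiling, so these ratios are not exact. Fah, fumarylacetoacetase, the last enzyme of the route, was missing on the same arrays and had a log2 ratio of -0.10 on control array 1 and -0.36, -0.34 and -0.59 on LPS arrays 2 to 4, with its control liver spot also near the ceiling. Of 4 further genes of phenylalanine and tyrosine, 2 fell and 0 rose, where 12.4% of all features were called lower and 12.2% higher.

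Kmo, kynurenine 3-monooxygenase, fell with little spread between rats. Its liver intensity was 9.98, 10.3, 8.75 and 9.33 units on the control arrays and 4.86, 3.97, 3.62 and 3.79 on the LPS arrays, while the pool read 9.12 to 9.91 units throughout. The highest LPS liver was far below the lowest control liver. On the log2 ratio scale Kmo fell by 1.21 (SE 0.10, adjusted p = 0.000366), or 2.31-fold, and it was called lower in every one of the 21 alternative fits.

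The next enzymes after Kmo, Kynu and Haao, were not called. Kynu, kynureninase, cleaves the product of Kmo and had liver intensities of 1.99, 3.92, 6.7 and 5.57 units on the control arrays and 3.88, 4.21, 4.27 and 4.56 on the LPS arrays. The LPS values lay close together inside the wide range of the control values. The difference in log2 ratio was 0.24 (95% interval -0.51 to 0.98). Haao, the dioxygenase that follows and leads towards NAD, had a difference of -0.08 (-0.38 to 0.21). Within an array the ratio of Kynu minus that of Kmo was -0.09 ± 0.82 (SD, n = 4) in the control livers and 1.35 ± 0.28 (SD, n = 4) in the LPS livers. By an exact two-sided permutation test over the 70 splits of the arrays this gave p = 0.0286, the smallest p the design allows, and 0.0429 after adjustment over the 3 pairs of enzymes compared in this way. The 3 pairs were chosen after their values were seen, so these p-values are not independent evidence. Tdo2, tryptophan dioxygenase, the entry to the whole route, had a value on control array 1 only, a log2 ratio of -0.16 with both channels near the ceiling.

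Acmsd, which draws the product of Haao away from NAD synthesis and is not one of the 37, went the opposite way to Kmo. Its log2 ratio was -0.26, 0.00, 0.32 and 0.00 on the control arrays and 0.91, 2.19, 2.00 and 1.58 on the LPS arrays, with no overlap. It rose by 1.66 (SE 0.28, adjusted p = 0.0048), or 3.15-fold, from 0.03 to 0.05 units in the control livers to 0.15 to 0.32 units. With the pool at 0.03 to 0.08 units and values given in steps of 0.01, the size of this rise is not exact. The call was lost with the pool component as a term (1.23, adjusted p = 0.208). Among the 6 further tryptophan genes tested, 2 rose and 1 fell, where 12.2% of all features were called higher and 12.4% lower.

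**Figure D3:**
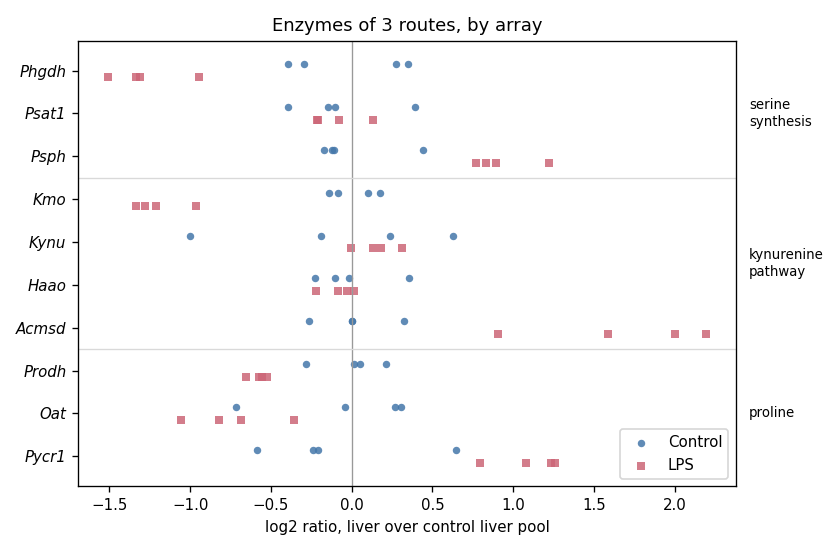
Log2 ratio of liver over control liver pool (x axis) for enzymes of serine synthesis, the kynurenine pathway and proline metabolism (y axis), with circles for the 4 control arrays and squares for the 4 LPS arrays. In each route an enzyme that fell (Phgdh, Kmo, Prodh) stands beside one that rose (Psph, Acmsd, Pycr1), and the remaining 4 enzymes were not called. The enzymes shown were chosen with their results known, so this pairing comes from the choice. Other tested genes of these routes are not shown, among them Aadat, which fell, and Qprt and Prodh2, which were not called.

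The glutamate group links alanine, aspartate, glutamine, ornithine and proline to glutamate, and its fallen enzymes lie on several of these links. Gpt, alanine aminotransferase, which passes the nitrogen of alanine on to glutamate and leaves pyruvate, had log2 ratios of -0.03, 0.31, -0.38 and 0.03 on the control arrays and -0.89, -0.91, -1.55 and -0.87 on the LPS arrays. LPS array 3 stood below the other 3, which lay within 0.04 of each other. Gpt fell by 1.04 (SE 0.20, adjusted p = 0.00808), or 2.05-fold.

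The glutamine enzymes differed in their place in the lobule but fell together. Gls2, the liver type glutaminase of periportal hepatocytes, releases ammonia from glutamine. It had log2 ratios of 0.03, 0.24, -0.65 and 0.09 on the control arrays and -1.01, -1.13, -1.04 and -1.04 on the LPS arrays. The LPS livers lay close together and control array 3 came nearest to them. Gls2 fell by 0.98 (SE 0.18, adjusted p = 0.0071), or 1.98-fold. Glul, glutamine synthetase, which captures ammonia in the hepatocytes around the central vein, had log2 ratios of 0.23, -0.15, 0.01 and -0.12 on the control arrays and -0.54, -0.57, -0.57 and -0.47 on the LPS arrays. Here too the groups were apart and the LPS livers nearly equal. Glul fell by 0.53 (SE 0.09, adjusted p = 0.00445), or 1.45-fold. Of other genes known for their zone, 3 of 6 periportal and 2 of 6 pericentral genes tested fell and 0 rose. Over all features 12.4% were called lower and 12.2% higher.

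Glud1, glutamate dehydrogenase, which frees ammonia from glutamate in the mitochondrion, had log2 ratios of -0.03, 0.06, -0.05 and 0.05 on the control arrays and -0.41, -0.85, -0.43 and -0.49 on the LPS arrays. All LPS livers were below the control livers, and LPS array 2 was the lowest. Glud1 fell by 0.55 (SE 0.10, adjusted p = 0.00698), or 1.47-fold.

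The aspartate aminotransferases did not pass the test. Got1, the cytosolic enzyme, had log2 ratios of -0.28, 0.29, -1.30 and 0.33 on the control arrays and -1.09, -0.62, -0.97 and -0.99 on the LPS arrays. Control array 3 was lower than every LPS array, and the other control arrays were higher than every LPS array. The difference was -0.68 (95% interval -1.50 to 0.14, adjusted p = 0.204), and without control array 3 it was -1.03 (adjusted p = 0.0105). Got2, the mitochondrial enzyme, had log2 ratios of -0.03, 0.16, -0.13 and -0.15 on the control arrays and 0.11, 0.19, 0.30 and 0.19 on the LPS arrays. Only control array 2 reached into the range of the LPS arrays. The difference was 0.23 (0.04 to 0.42, adjusted p = 0.0739), and without control array 2 it was 0.30 (adjusted p = 0.0148). Got2 minus Got1 within an array was 0.20 ± 0.71 (SD, n = 4) in the control livers and 1.12 ± 0.21 (SD, n = 4) in the LPS livers. The same exact permutation test gave p = 0.0571 for this pair, also 0.0571 adjusted over the 3 pairs, and did not pass.

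Prodh, proline dehydrogenase, starts proline oxidation and was carried by 3 probes. One probe read 4.16, 6.01, 2.30 and 4.40 units in the control livers and 1.52, 1.34, 1.4 and 1.1 in the LPS livers, with no overlap and control array 3 the lowest control. That probe fell by 1.52 (SE 0.28, adjusted p = 0.00734), or 2.87-fold. The other probes were read at 0.06 to 0.13 units and differed by -0.14 (adjusted p = 0.0301) and -0.06 (adjusted p = 0.514). The mean of the 3 probes fell by 0.58 (SE 0.10, adjusted p = 0.00591), or 1.49-fold, which is less than the first probe shows. With the liver channel alone this call was lost (-0.43, adjusted p = 0.0588).

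Pycr1, a mitochondrial reductase that completes proline synthesis and is not among the 37, had log2 ratios of -0.21, -0.24, 0.64 and -0.58 on the control arrays and 1.24, 1.26, 1.08 and 0.80 on the LPS arrays. All LPS arrays were above all control arrays, with control array 3 the nearest to them. Pycr1 rose by 1.19 (SE 0.25, adjusted p = 0.0131), or 2.28-fold, a call lost with quantile-normalized ratios (adjusted p = 0.154) and with the pool component as a term (0.168). Oat, ornithine aminotransferase, connects ornithine with proline and glutamate, and had log2 ratios of -0.04, 0.30, -0.72 and 0.27 on the control arrays and -0.82, -0.68, -0.36 and -1.06 on the LPS arrays. Control array 3 lay among the LPS arrays and the other controls above them. The difference was -0.69 (95% interval -1.27 to -0.10, adjusted p = 0.0857), and without control array 3 it was -0.91 (adjusted p = 0.0137). Asns, asparagine synthetase, was read at under 0.1 units on every array and had a difference of 0.07 (-0.17 to 0.32). Of 5 further genes of this group tested, 3 rose and 1 fell, where 12.2% of all features were called higher and 12.4% lower.

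In branched-chain breakdown, subunits of the branched-chain keto acid dehydrogenase, the complex that commits these amino acids to oxidation, fell by small amounts. Bckdha, its E1 alpha subunit, had log2 ratios of 0.05, 0.22, -0.25 and 0.10 on the control arrays and -0.51, -0.66, -0.41 and -0.45 on the LPS arrays. No values overlapped, and control array 3 was again the lowest control. Bckdha fell by 0.54 (SE 0.11, adjusted p = 0.00982), or 1.45-fold, at 0.19 to 0.36 units of liver intensity. Dbt, the E2 core of the complex, had log2 ratios of 0.14, 0.04, -0.05 and -0.03 on the control arrays and -0.41, -0.38, -0.24 and -0.36 on the LPS arrays. Its spread was narrow in both groups, and it fell by 0.37 (SE 0.06, adjusted p = 0.0049), or 1.29-fold.

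Bckdhb, the E1 beta partner of Bckdha, had a difference of -0.26 (95% interval -0.89 to 0.37), with control array 3 and LPS array 1 both far below their groups at -0.80 and -0.77. Bcat2, the mitochondrial transaminase, had 0.19 (0.01 to 0.37, adjusted p = 0.114) at 0.13 to 0.20 units, and without control array 2 it had 0.25 (adjusted p = 0.0188). Ivd, isovaleryl-CoA dehydrogenase of the leucine route, had 0.12 (-0.22 to 0.45). Among 16 further branched-chain genes tested, 7 fell and 0 rose, where 12.4% of all features were called lower and 12.2% higher. The largest of these falls were those of Acadsb, the short branched-chain acyl-CoA dehydrogenase of the isoleucine route, by 0.81 (SE 0.14, adjusted p = 0.00466), and of Ppm1k, the phosphatase that activates the dehydrogenase complex, by 0.74 (SE 0.17, adjusted p = 0.0183). Both were above every LPS value on every control array. Acadsb was read at 0.10 to 0.17 units in the control livers and 0.04 to 0.10 in the LPS livers, so its size is not exact. Both calls were lost with quantile-normalized ratios (adjusted p = 0.0791 for Acadsb and 0.224 for Ppm1k). With the pool component as a term they were lost too (adjusted p = 0.143 for each).

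Of the 2 histidine enzymes, 1 fell. Ftcd, formimidoyltransferase cyclodeaminase, hands the last one-carbon unit of histidine to folate, and had log2 ratios of -0.17, 0.12, -0.06 and -0.13 on the control arrays and -0.70, -0.44, -0.81 and -0.78 on the LPS arrays. All LPS livers were lower than all control livers. Ftcd fell by 0.62 (SE 0.10, adjusted p = 0.00424), or 1.54-fold. Hal, histidine ammonia-lyase, the first enzyme of the route, had a difference of -0.06 (95% interval -0.37 to 0.25).

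Of the 2 lysine enzymes, 1 fell and the other varied widely between the LPS livers. Gcdh, glutaryl-CoA dehydrogenase, on which lysine and tryptophan breakdown meet, had log2 ratios of -0.02, 0.15, -0.35 and 0.15 on the control arrays and -1.05, -1.11, -1.36 and -1.24 on the LPS arrays. The groups were well apart. Gcdh fell by 1.17 (SE 0.13, adjusted p = 0.000818), or 2.25-fold. Against Ivd, a related mitochondrial acyl-CoA dehydrogenase, Gcdh was 0.00 ± 0.29 (SD, n = 4) in the control livers and -1.29 ± 0.16 (SD, n = 4) in the LPS livers within an array (exact permutation p = 0.0286, 0.0429 adjusted over the 3 pairs). This pair was chosen after its values were seen, with Gcdh fallen and Ivd not called. Its p is the smallest the design allows and adds no evidence to the fall of Gcdh.

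Aass, the bifunctional enzyme that begins lysine breakdown, had liver intensities of 2.80, 2.68, 1.68 and 3.74 units on the control arrays and 5.18, 6.88, 0.85 and 2.97 on the LPS arrays. The LPS livers included both the highest and the lowest of the 8 values, while the pool read 2.26 to 2.95 units. The SD of the log2 ratio was 1.30 in the LPS group and 0.439 in the control group. Its difference was 0.45 (95% interval -0.98 to 1.88), so a change of either sign was not detectable with 4 arrays per group.

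No enzyme of sulfur amino acid breakdown was called. Csad, cysteine sulfinic acid decarboxylase of taurine synthesis, had log2 ratios of -0.10, 0.06, 0.53 and -0.52 on the control arrays and -0.46, -0.37, -0.62 and -0.44 on the LPS arrays. The LPS livers lay close together, and control array 4 lay among them. The difference was -0.47 (95% interval -0.94 to 0.01, adjusted p = 0.136), and without control array 4 it was -0.64 (adjusted p = 0.0309). Cth, cystathionine gamma-lyase, which makes cysteine, had -0.36 (-0.81 to 0.08), with -0.50 (adjusted p = 0.0161) for a probe at 0.12 to 0.20 units and -0.23 (adjusted p = 0.626) for a probe at 10.6 to 27 units. Among 7 further sulfur genes tested, 3 fell and 0 rose, where 12.4% of all features were called lower and 12.2% higher. The subunits of glutamate-cysteine ligase, which starts glutathione synthesis, had the largest of these falls. Gclm fell by 1.43 (SE 0.22, adjusted p = 0.00303) and Gclc fell by 0.68 (SE 0.16, adjusted p = 0.0203). Gclm was carried by a bright probe, at 5.52 to 11.5 units in the control livers and 1.67 to 2.04 in the LPS livers. Its other probe was dim, at 0.13 to 0.24 and 0.08 to 0.1 units. Gclc was read at 0.2 to 0.36 units in the control livers and 0.17 to 0.21 in the LPS livers, ranges that overlap. Both calls were lost with quantile-normalized ratios (adjusted p = 0.136 for Gclm and 0.231 for Gclc). With the pool component as a term Gclm kept its call (adjusted p = 0.0306) and Gclc lost it (0.161).

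Over all 58 further genes of amino acid metabolism, 48 were tested, 14 fell and 7 rose, with a median difference of -0.17, where 12.4% of all features were called lower and 12.2% higher. The difference between these counts and those of the 37 enzymes was not tested.

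The enzymes varied between rats as well as between groups. The median SD of the log2 ratio within a group was 0.243 over the 32 enzymes in the control livers and 0.163 in the LPS livers, against 0.16 and 0.122 over all features. The median of the 32 ratios was -0.04, 0.19, -0.07 and -0.01 on control arrays 1 to 4 and -0.43, -0.37, -0.39 and -0.43 on LPS arrays 1 to 4. LPS array 1, whose header gives the lower dose, and LPS array 4 had the same median at 2 decimals. Control array 3 was the lowest control in 10 of the 13 fallen enzymes (76.9%), in 25.9% of the 2607 features called lower with a value on all control arrays, and in 18.8% of the 20985 features with such values. Without it 15 of the 32 enzymes were called lower, the 13 above and Got1 and Oat, against 11.6% of all features.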

How the data were processed

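RNA of 8 rat livers, 4 per group, was read on Agilent arrays against a control liver pool after amplification of 100 ng in 2 rounds, per the labels' protocols. The authors' deposited intensity values are linear, in arbitrary units with 2 decimals, for both channels. Per the submitters' processing notes they came from Agilent Feature Extraction 8.5.1.1. How background and dyes were corrected is not given in the sources used here. A series matrix, also deposited, holds log10 values of the same ratios, within 0.01 for 100% of its probes on each array, with a median of 0 in each column. It was used to carry the replicate numbers. The pool is a common reference, and direction follows the dyes in the labels (liver Cy5 over pool Cy3). The authors' per-array p columns (8) were not used.

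Probes were named by RefSeq accession (25 of the 40 probes) or else by current symbol (15) through the GRCr8 gene table. The measure was the log2 ratio of liver over pool. Probes needed 3 values in each group, which 188 did not have, and those sharing a symbol were averaged. LPS and control arrays were compared by limma 3.58.1 (lmFit, eBayes) under R 4.3.3. P-values were adjusted by Benjamini-Hochberg across the 21052 features, with 0.05 as threshold; "fell" and "rose" are used only past it. Differences are LPS minus control, with standard errors of the fit, and 4 arrays per group limit the precision. Python 3.11.15 with pandas 2.3.3, numpy 2.4.6 and matplotlib 3.10.9 made the tables and figures.

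The enzymes and gene lists were chosen with earlier results of these data known. Every measured enzyme of the list is named, and of the further genes the 4 largest called rises and 4 largest called falls, 1 of which is not reported here. The comparisons within an array of 3 pairs of enzymes (exact two-sided permutation test), and the shares of bright and dim features called, were added after seeing the data. The fit was tested on simulated data before use. Alternatives were robust eBayes, an intensity trend, quantile normalization, array weights, 1 probe per gene, complete probes, a test against a 1.5-fold change, a filter at 0.1 units, spots near the ceiling (90% of the highest value) left out, the liver channel alone, array pairs or single arrays left out, the first pool component, and a replicate block.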

Additional observations from a re-analysis of the deposited data

Results flagged for a closer look

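Of the 32 tested enzymes, Gpt on LPS array 3 stood apart from its group, with a log2 ratio of -1.55 where the other 3 LPS arrays lay between -0.91 and -0.87. The gap was 0.945 of the group's whole range, above Dixon's critical value for 4 values. With 2 groups per enzyme tested, chance flags about 1 in 20 groups. Without LPS array 3 Gpt was still lower, and over the 8 fits that each left out 1 array its difference was -1.16 to -0.87 (adjusted p = 0.00804 to 0.0254).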

How the results depend on the processing

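Over 21 alternative fits, none of the 272 values of the 13 fallen enzymes changed sign. With the ratios quantile normalized, 2 enzymes and 1 of the further genes were called lower, 4 further genes higher, and the median difference was -0.27. Of all features, 3.29% were called lower and 3.92% higher there. The test against a 1.5-fold change left 2 enzymes (Kmo and Sds, against 0.66% of all features), 0 further genes lower and 1 higher (against 1.2%). The first pool component as a term left 3 enzymes, 1 further gene lower and 2 higher, against 2.25% of all features lower and 3.01% higher. The cause of these losses was not tested, except that a test against a 1.5-fold change asks for a larger difference. The number of enzymes called higher, 0 in the fit reported, was 4 with array weights, 1 with a filter at 0.1 units, 1 with the liver channel alone and 4 without control array 2 (Gldc, Sardh, Got2 and Bcat2). In the same order, 14%, 19.5%, 7.13% and 11.4% of all features were called higher in these fits. When each array was left out in turn, 12 to 15 enzymes were lower, 0 to 4 higher, the median was -0.43 to -0.38, and 10 to 14 further genes were lower and 7 to 8 higher. Of all features, 9.36% to 11.9% were lower and 9.56% to 11.4% higher. With the labels' replicate numbers as a replicate block, on the series matrix values, 12 enzymes were lower, 11 of them shared with the fit reported, 0 were higher, the median was -0.38, and 10 further genes were lower and 7 higher. Of all features, 8.57% were lower and 9.42% higher with the block. Hpd (adjusted p = 0.0627) and Bckdha (0.0543) lost their call and Dmgdh (0.0433) gained one. Deviations of same-numbered arrays correlated at -0.01, -0.02, 0.03 and 0.17 across features, and those of differently numbered arrays at -0.12 to 0.13. Such correlations cannot settle whether the numbers pair the rats. Ppm1k also lost its call without control array 1 or LPS array 2, and Gclc without LPS array 2 or 3 (adjusted p up to 0.0515 and 0.0596). Centring on the median gave the fit reported, since the medians were 0, and the array of lower header dose is LPS array 1. Sds could not be tested with spots near the ceiling left out, nor Asns with the filter at 0.1 units.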
